A study of Mus musculus with 3 samples.

Results

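A set of 35 genes that act in mitosis was followed across the cell lineages of developing mouse back skin. The genes were taken as a list of names for their role in mitosis, and all 35 were among the 19165 genes of the expression table. They were *Top2a*, *Mki67*, *Smc4*, *Cenpa*, *Cenpe*, *Cenpf*, *Hjurp*, *Ndc80*, *Nuf2*, *Bub1*, *Bub1b*, *Cdk1*, *Ccna2*, *Ccnb1*, *Ccnb2*, *Plk1*, *Aurka*, *Ttk*, *Aurkb*, *Birc5*, *Cdca8*, *Cdc20*, *Ube2c*, *Cdca3*, *Tpx2*, *Hmmr*, *Nusap1*, *Kif11*, *Kif20b*, *Kif2c*, *Ckap2*, *Ckap2l*, *Tacc3*, *Kif23* and *Anln*. A cell in which at least 5 of the 35 were detected is called a mitotic cell below. The name stands for that count and not for an observed cell division, since transcripts of these genes are also present in G2 and for some time after division.

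The skin came from male C57BL/6 mice at the embryonic stages E13.5 and E16.5, named by the day of gestation, and on the day of birth (P0), the stages of hair follicle induction, organogenesis and cytodifferentiation. The labels name no transgene and no treatment. Back skin of several males was pooled at each stage, embryonic skin was dissociated with trypsin and P0 skin with collagenase IV, and single cells were captured in droplets and 1 library per stage was sequenced from 3′ ends of transcripts (10x Genomics, v2 chemistry). Each captured transcript is counted once by its unique molecular identifier (UMI). With 1 library per stage no difference has a replicate check, cells of a library are not replicates, and no test was run. Stage, digestion and library cannot be told apart.

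The mitotic programme is switched on late in the cell cycle. The kinase *Cdk1* with its cyclins drives entry into mitosis, the kinetochore proteins tie each centromere to the spindle, and the spindle checkpoint holds the cell until every chromosome is attached. The anaphase-promoting complex then marks the cyclins for destruction, motor proteins pull the spindle apart, and a contractile ring divides the cell. In skin, division is known for the basal layer of the epidermis, for the matrix of the growing follicle and for the embryonic dermis. Suprabasal keratinocytes and the cells of the dermal condensate (DC) and dermal papilla (DP), the mesenchymal clusters that induce the follicle, are known for having left the cycle.

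The promoters of these genes share short sequences that the list did not use. Many late cell cycle promoters carry the cell cycle genes homology region, TTTGAA, close to the start of transcription, where the MuvB core binds, and CCAAT boxes, which NF-Y binds. In the RefSeq table (GRCm38.p6), 31 of the 35 genes had a promoter window of 250 bases before to 50 bases after the start, and *Tpx2*, *Aurkb*, *Ccna2* and *Smc4* had none. TTTGAA was searched on both strands, and 24 of the 31 windows held it, against 17.9% of all 32851 windows. CCAAT, also on both strands, was in 23 of the 31 windows, against 37.4% of all, and both were in 20 of the 31, against 6.95% of all. The letters TTTAAA, another form of the homology region, were in 9 of the 31 windows and in 13.2% of all. The 31 TTTGAA matches lay at a median of 4 bases after the start, and 21 of them were between 50 bases before and 30 bases after it. A match is a description of the letters and not a bound site.

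The windows of 6 members from 4 roles are printed 5′ to 3′ on the strand of the gene to show this arrangement, with TTTGAA and CCAAT, or their reverse complements TTCAAA and ATTGG, in capitals. They are *Cdc20* (chr4:118437294-118437593, minus strand), *Ccnb2* (chr9:70421505-70421804, minus strand), *Cenpf* (chr1:189688037-189688336, minus strand), *Hmmr* (chr11:40733388-40733687, minus strand), *Plk1* (chr7:122159185-122159484, plus strand) and *Ube2c* (chr2:164769679-164769978, plus strand).
Cdc20: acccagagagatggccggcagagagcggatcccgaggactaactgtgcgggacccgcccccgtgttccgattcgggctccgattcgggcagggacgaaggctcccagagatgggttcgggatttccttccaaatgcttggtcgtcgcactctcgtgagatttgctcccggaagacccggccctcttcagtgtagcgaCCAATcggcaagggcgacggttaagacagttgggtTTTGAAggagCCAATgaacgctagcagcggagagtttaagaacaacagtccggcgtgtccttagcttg
Ccnb2: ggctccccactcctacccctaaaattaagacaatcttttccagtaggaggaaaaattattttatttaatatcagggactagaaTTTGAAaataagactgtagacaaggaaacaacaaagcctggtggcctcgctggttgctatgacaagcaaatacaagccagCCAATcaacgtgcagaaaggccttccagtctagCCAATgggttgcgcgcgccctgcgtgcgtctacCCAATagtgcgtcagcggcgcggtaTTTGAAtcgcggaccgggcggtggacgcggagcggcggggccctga
Cenpf: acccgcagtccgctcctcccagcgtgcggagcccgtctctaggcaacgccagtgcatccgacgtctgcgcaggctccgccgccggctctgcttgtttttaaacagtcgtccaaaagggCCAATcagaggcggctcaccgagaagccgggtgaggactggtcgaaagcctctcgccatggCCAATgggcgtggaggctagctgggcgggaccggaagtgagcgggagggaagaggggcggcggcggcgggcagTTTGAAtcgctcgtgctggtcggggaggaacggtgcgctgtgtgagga
Hmmr: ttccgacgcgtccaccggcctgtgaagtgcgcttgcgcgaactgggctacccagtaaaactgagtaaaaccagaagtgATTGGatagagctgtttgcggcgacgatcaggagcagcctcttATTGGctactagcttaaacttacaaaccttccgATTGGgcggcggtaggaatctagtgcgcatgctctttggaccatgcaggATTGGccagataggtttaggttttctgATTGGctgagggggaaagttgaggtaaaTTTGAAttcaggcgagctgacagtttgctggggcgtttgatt
Plk1: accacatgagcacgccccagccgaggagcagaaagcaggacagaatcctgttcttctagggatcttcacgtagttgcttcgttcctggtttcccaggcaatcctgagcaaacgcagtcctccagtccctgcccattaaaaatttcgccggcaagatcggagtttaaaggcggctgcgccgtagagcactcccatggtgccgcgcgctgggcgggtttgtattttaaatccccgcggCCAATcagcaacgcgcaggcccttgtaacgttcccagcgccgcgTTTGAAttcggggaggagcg
Ube2c: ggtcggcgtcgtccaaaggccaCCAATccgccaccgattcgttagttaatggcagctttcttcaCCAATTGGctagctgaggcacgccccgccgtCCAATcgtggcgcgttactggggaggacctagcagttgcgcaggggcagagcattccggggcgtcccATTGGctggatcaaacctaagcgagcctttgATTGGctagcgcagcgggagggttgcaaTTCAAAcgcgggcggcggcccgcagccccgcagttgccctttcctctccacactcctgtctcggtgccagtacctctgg
In *Cenpf*, *Ccnb2* and *Hmmr* a TTTGAA lay 2, 4 and 8 bases after the start, and in *Cdc20* and *Ube2c* it lay 18 and 29 bases before it. The *Hmmr* window held 5 CCAAT matches and the *Ube2c* window 6, while the *Plk1* window held 1, with TTTGAA 30 bases after the start. In *Ube2c* 2 of the matches overlapped in the letters CCAATTGG, read once on each strand.

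The libraries held 5962, 5208 and 5065 cells at E13.5, E16.5 and P0, with a median of 7066.5, 11021 and 6797 UMIs and of 2655, 3281 and 2234 genes per cell. Because more UMIs per cell mean more genes detected, each cell was thinned at random to 3500 UMIs before members were counted, which left out 1 cell at E16.5. Lineages were set by clustering without the members and without other cell cycle genes, and by fixed marker lists, and carry names such as dermal-like. In all 24 lineage and stage groups of at least 50 cells the summed level of the own marker list was highest in the group it named. The same lists had named the clusters, so this is a description and not a check of the names. Of the cells of the 3 stages, 89%, 85.6% and 76.6% were named. The libraries shared 44 cell barcodes between E13.5 and E16.5, 41 between E13.5 and P0 and 32 between E16.5 and P0. All intervals given are 95%, exact binomial for shares and exact Poisson for UMI sums, and cover counting error only. A level is given in CPM, which is a gene's UMIs scaled to a total of 1000000 for a group of cells, and levels of different genes are not compared, since the capture of 3′ ends differs between them.

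Mitotic cells made up 63.3% of all E13.5 cells (3774 of 5962, interval 62.1% to 64.5%), 42.8% of E16.5 cells (interval 41.4% to 44.1%) and 27.1% of P0 cells (interval 25.9% to 28.4%). Without thinning the shares were 77.9%, 69.4% and 35.7%, in the same order. At E13.5 5.43% of cells held none of the 35 transcripts, at E16.5 10.1% and at P0 26%. The P0 library thus had fewer mitotic cells, but cells with very many members were no rarer than at E13.5: 4.11% of E13.5 cells, 6.91% of E16.5 cells and 5.47% of P0 cells held at least 20. The highest number in a thinned cell was 30, 31 and 29. At the edge of the rule, 311, 280 and 143 cells held exactly 4 members and 324, 194 and 102 cells exactly 5.

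**Figure D1:**
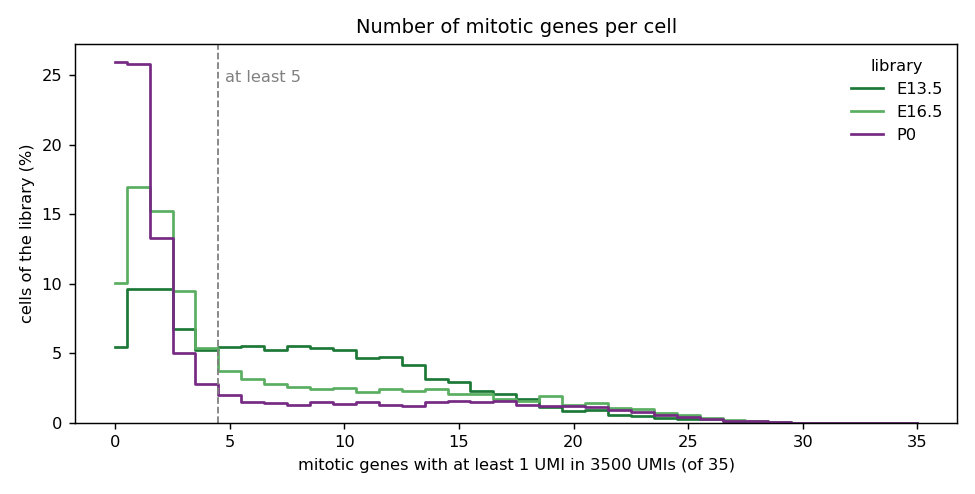
Distribution of the number of the 35 mitotic genes with at least 1 UMI in a cell thinned to 3500 UMIs (percent of the cells of each library), with a dashed line at the threshold of 5. The P0 line is highest at 0 genes, with 26% of cells against 5.43% at E13.5 and 10.1% at E16.5, and the 3 lines lie close together beyond 20 genes.

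All 35 members were found in a smaller share of P0 cells than of E13.5 cells, but 29 of the 35 were found in a larger share of the mitotic cells of P0. *Birc5*, which encodes survivin, was detected in 49.1%, 40.7% and 26.9% of thinned cells at E13.5, E16.5 and P0. *Ube2c*, the conjugating enzyme of the anaphase-promoting complex, was in 44.7%, 31% and 23.2%, and *Top2a*, the topoisomerase that untangles sister chromatids, in 40.7%, 33.9% and 18.7%. The member seen in the fewest cells was *Ttk*, a checkpoint kinase, in 5.84%, 5.15% and 2.59%, and *Bub1*, another such kinase, was in 10.7%, 9.1% and 2.8%. Among mitotic cells alone *Cdk1* was detected in 45.1%, 48.9% and 65.2%, *Ccnb2* in 33.8%, 44.3% and 57.3% and *Cdca3* in 38%, 50.9% and 66.5%, so each of these 3 was seen most often in the mitotic cells of P0. *Bub1*, with 15.7%, 19.3% and 9.32%, and *Cenpe*, the kinetochore motor, with 32.9%, 37.8% and 29.4%, were seen least often there.

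Summed over whole libraries, 29 of the 35 members had a lower level at P0 than at E13.5, and 23 of the 35 at E16.5. *Top2a* (chromosome 11, 98992943 to 99024189, minus strand, GENCODE vM21 on GRCm38) was at 234 CPM at E13.5 (interval 230 to 238), 261 CPM at E16.5 (257 to 264) and 120 CPM at P0 (117 to 123). *Mki67* (chromosome 7, 135689784 to 135716361), the source of the Ki-67 antigen that coats mitotic chromosomes, was at 92.2, 118 and 37.8 CPM. *Cdk1* (chromosome 10, 69335146 to 69352938) was at 141, 136 and 151 CPM, so that its level over the whole library was highest at P0. Another annotated gene lay on the same strand within the span of 8 members, such as *Mir15b* in *Smc4*, and on the other strand within that of 12, such as *Tnnc2* across from *Ube2c*, so the counts of these members are uncertain where reads could be shared.

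**Figure D2:**
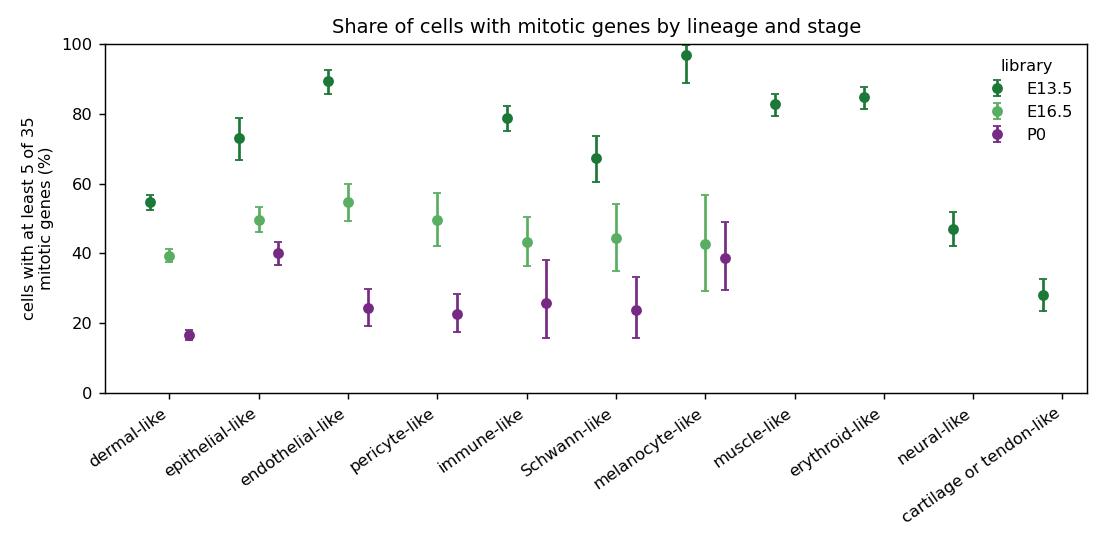
Share of cells with at least 5 of the 35 mitotic genes (percent, each cell thinned to 3500 UMIs) in each lineage with at least 50 cells, by stage, with exact 95% binomial intervals that cover counting error only. Dermal-like cells stood at 54.6%, 39.4% and 16.7% at E13.5, E16.5 and P0, and had the lowest point of the lineages drawn at E16.5 and P0.

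Lineages differed widely at E13.5. Melanocyte-like cells had 96.8% mitotic cells (60 of 62, interval 88.8% to 99.6%), endothelial-like cells 89.5%, erythroid-like cells 84.8% and muscle-like cells 82.7%. Immune-like cells stood at 78.8%, epithelial-like cells at 73.1% and Schwann-like cells at 67.3%. Neighbours among these first 7 lineages had overlapping intervals, which does not show that their shares were equal. Dermal-like cells followed with 54.6% of 2015 cells (interval 52.4% to 56.8%), neural-like cells with 47% (42.2% to 51.8%) and cartilage or tendon-like cells with 28% (23.5% to 32.8%). These 3 were each below the lineage before them beyond counting error. Depth before thinning differed too, with medians of 5113.5 UMIs in melanocyte-like, 7295 in endothelial-like, 5932 in erythroid-like and 6538 in muscle-like cells. Dermal-like cells had 8577, but epithelial-like cells had 9605 and neural-like cells 5456.5. Of dermal-like cells with 3586 to 6669 UMIs 68.8% were mitotic, against 37.4% with 6678 to 10417 and 57.8% with 10423 to 36342. The part of depth in this order was not tested. The order depended on the threshold of 5. At least 20 members were held by 7.39% of dermal-like cells, the largest such share, and by 3.23% of melanocyte-like and 1.71% of endothelial-like cells. The summed level of the members was 3700 CPM in dermal-like cells. That was above epithelial-like (3670), immune-like (3422) and erythroid-like (3358) cells and below melanocyte-like, endothelial-like, muscle-like and Schwann-like cells.

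Neurons do not divide, and the neural-like clusters were looked at for a background level. Of the neural-like clusters at E13.5, the one with *Tubb3*, *Map2* and *Elavl3* among its leading genes had 4 mitotic cells of 103 (3.88%) at a median of 5144 UMIs per cell, and another, with *Sst*, *Npy* and *Lhx5* among them, had 3 of 58 (5.17%) at 5384 UMIs. The dermal-like cells of the same library had a median of 8577 UMIs before thinning. The largest neural-like cluster, of 273 cells, had 72.2% mitotic cells although *Dcx* and *Elavl3* were among its leading genes, so the neural-like clusters gave no single background level.

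At E16.5 the lineages lay close together, from endothelial-like cells with 54.7% (192 of 351) through pericyte-like and epithelial-like cells with 49.7% each, Schwann-like cells with 44.5%, immune-like cells with 43.3% and melanocyte-like cells with 42.6% to dermal-like cells with 39.4% of 2724 (interval 37.5% to 41.2%). No neighbours in this order had intervals apart. At P0 epithelial-like cells led with 40% of 818 (interval 36.6% to 43.4%), followed by melanocyte-like cells with 38.8%, immune-like cells with 25.8%, endothelial-like cells with 24.3%, Schwann-like cells with 23.8%, pericyte-like cells with 22.7% and dermal-like cells with 16.7% of 2282 (interval 15.1% to 18.2%). Epithelial-like cells and dermal-like cells thus lay at opposite ends of the P0 order at the threshold of 5. At least 20 members were held by 6% of dermal-like cells, the largest such share of these lineages, and by 4.52% of epithelial-like cells. The summed level of the members was lowest in endothelial-like cells (1540 CPM) and highest in melanocyte-like cells (3384). It was 2086 CPM in dermal-like and 2780 CPM in epithelial-like cells. Cells left unnamed had 28.9%, 41.6% and 45.3% mitotic cells. At P0 they numbered 786, in 3 clusters that a list matched best but whose 10 leading genes held at least 1 marker of another lineage and none of the matched one. The epithelial list matched best 411 of them, with *Tbx1*, *Sox9* and *Lgr5* among the leading genes (52.6% mitotic), and 169 led by globin genes (49.7%), and the dermal list matched best 206 with *Stmn2*, *Sox18* and *Heyl* among the leading genes (27.2%).

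Endothelial-like cells thus went from 89.5% to 54.7% and 24.3% over the 3 stages, and the shares of all lineages ordered at each of them were lowest at P0.

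The dermal lineage held the most cells. Its mitotic share was 54.6%, 39.4% and 16.7% at E13.5, E16.5 and P0, which is 3.28-fold lower at P0 than at E13.5 (log2 ratio −1.71, interval −1.86 to −1.57) and 1.39-fold lower at E16.5 than at E13.5 (log2 ratio −0.47, interval −0.56 to −0.39). The summed level of the 35 members was 3700, 3460 and 2086 CPM. Cells with at least 5 genes of a list of 43 S phase genes but under 5 members made up 29.3%, 23.5% and 5.87% of dermal-like cells, and cells with neither 16.1%, 37.2% and 77.5%. Unthinned shares were 72.2%, 65.2% and 20%.

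This difference moved with the number of genes per cell. Dermal-like cells had medians of 3050, 3235 and 2004 genes at E13.5, E16.5 and P0. Among cells with at least 2500 genes, 48% of 1398 were mitotic at E13.5, 40.1% of 2481 at E16.5 and 43.4% of 392 at P0, and among cells with fewer genes 69.7%, 31.3% and 11.1%. When cells with at least 2500 genes were clustered and named anew, the log2 ratio of P0 against E13.5 was −0.01. Only 17.2% of dermal-like P0 cells had that many genes, against 69.4% at E13.5. Even at 3500 UMIs a dermal-like cell had a median of 1706, 1593 and 1432 genes, the 50 most abundant genes took 20.5%, 23.9% and 29% of its UMIs, and *Col1a1*, *Col1a2* and *Col3a1*, the fibrillar collagens, 0.601%, 2.34% and 3.78%. Mitotic dermal-like cells had more UMIs before thinning than other cells at E16.5 (median 12299.5 against 10031.5) and P0 (7370 against 5908.5) but fewer at E13.5 (7976 against 8865.5). The part of these quantities in the stage difference was not tested.

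A sub-cluster of 538 dermal-like E13.5 cells, led by *Spry2* and *Notch2* at a median of 4688.5 UMIs, had 79.7% mitotic cells, and without it the E13.5 share was 45.5%. A sub-cluster of 265 P0 cells was led by the members *Cenpf*, *Ube2c* and *Top2a* themselves, and without it the P0 share was 12%. Erythroid markers, the globins among them, in dermal-like cells summed to 3104, 1313 and 855 CPM at E13.5, E16.5 and P0, and epithelial markers to 60.8, 416 and 534 CPM. Of the 9 erythroid markers 3 were at 0 at P0 and none at E13.5, all 10 epithelial markers were above 0 at each stage, and the part of either list in the result was not tested.

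A mitotic dermal-like cell held a median of 11, 13 and 17 members at E13.5, E16.5 and P0, and a mean of 20.3, 24.5 and 33.8 member UMIs out of 3500. At least 5 members are set by the rule, and the values above that are given as a description. Other genes that the rule did not use followed the same cells: 52 further G2 and M genes summed to 33.1 UMIs in a mitotic P0 cell and 2.4 in the other dermal-like cells, a ratio of 13.8, and to 21.3 and 6.14 at E13.5, a ratio of 3.47. The 43 S phase genes were 4.35-fold higher in mitotic cells at P0 and 1.42-fold higher at E13.5.

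Gene by gene, 8 of the 35 members were at least 2-fold lower in dermal-like cells at P0 than at E13.5, on the scale of log2 of CPM plus 10. Of all 12292 genes with at least 50 UMIs over both groups, 8.59% were lower by that much, so 8 of 35 is above that share, and the median log2 difference was −0.78 over the members and −0.24 over all genes. The count was 1 lower and 1 higher among cells with at least 2500 genes, 24 with the naming reference at the median and 15 with a pseudocount of 1 CPM. The 8 were *Kif20b*, *Cenpe*, *Bub1*, *Mki67*, *Top2a*, *Hmmr*, *Tpx2* and *Cenpf*. None of the 35 was 2-fold lower at E16.5, where 1.91% of all genes were, and the medians were −0.16 and −0.09.

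None of the 7 cyclins and kinases was at least 2-fold lower at P0, and their median was −0.71. *Cdk1*, the kinase that starts mitosis, was at 135 (E13.5), 137 (E16.5) and 124 (P0) CPM in dermal-like cells, a log2 difference of −0.12 (counting error 0.04) between P0 and E13.5. *Ccnb2*, a B-type cyclin, was at 100, 109 and 75.6 CPM, and *Ccnb1*, its partner in mitotic entry, at 129, 97.4 and 74.9 CPM. *Ccna2*, the cyclin of S phase and G2, stood at 134, 118 and 71.7 CPM. In each of these the P0 value was lowest, by less than 2-fold. *Plk1*, a kinase of centrosome maturation and many later steps, was at 63.2, 50.4 and 30.7 CPM, *Aurka*, the kinase of the spindle poles, at 49.8, 43.4 and 36.4 CPM, and *Ttk*, the checkpoint kinase, at 22.4, 17.6 and 7.47 CPM.

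The kinetochore and centromere genes had a median log2 difference of −0.91 between P0 and E13.5. *Cenpe*, a motor that carries chromosomes to the spindle equator, was at 98.7, 78.8 and 26.6 CPM, *Cenpf*, a large protein of the outer kinetochore, at 190, 132 and 76.6 CPM, and *Bub1*, a checkpoint kinase, at 42.4, 35.3 and 8.12 CPM. These 3 of the 8 genes of this role were at least 2-fold lower at P0. *Cenpa*, the histone variant that marks the centromere, was at 218, 247 and 167 CPM, highest at E16.5. *Hjurp*, the chaperone that loads *Cenpa* protein, was at 155, 166 and 72.9 CPM. *Ndc80* and *Nuf2*, partners in the complex that grips microtubules, stood at 26.6, 21.5 and 16.2 CPM and at 40.1, 32.6 and 20.1 CPM, and *Bub1b*, which encodes the checkpoint protein BubR1, at 38.8, 35 and 17.5 CPM.

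The chromosomal passenger complex corrects wrong attachments and then guides division of the cell. Its kinase *Aurkb* had levels of 55.7, 65.8 and 53.9 CPM, with a log2 difference of −0.04 (counting error 0.07) at P0. Its subunits *Birc5* and *Cdca8*, which encodes borealin, were at 307, 323 and 191 CPM and at 131, 97.7 and 71.6 CPM, so the kinase and its partners did not move alike. Among genes of anaphase, *Cdc20*, the activator of the anaphase-promoting complex, was at 147, 130 and 102 CPM, and *Ube2c* at 302, 252 and 191 CPM. *Cdca3*, which acts with ubiquitin ligases on mitotic entry, was at 111, 141 and 115 CPM and was the member with the highest log2 difference, 0.04 (counting error 0.05).

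Of the 9 spindle genes, 3 were at least 2-fold lower at P0 on the same log2 scale. *Kif20b*, a kinesin of late mitosis, was at 52.7, 35 and 10.3 CPM, the lowest log2 difference of all members (−1.63, counting error 0.12). *Hmmr*, a spindle pole protein, was at 75.4, 70 and 25.3 CPM, and *Tpx2*, which activates *Aurka* protein on the spindle, at 120, 104 and 46.1 CPM. *Kif11*, the motor that separates the poles, was at 41.8, 44.1 and 17.6 CPM, and *Kif2c*, which takes microtubules apart, at 38.1, 26.1 and 17.1 CPM. Smaller differences were found for *Nusap1*, a microtubule bundling protein, with 92, 85.6 and 62.6 CPM, *Tacc3*, which stabilises spindle fibres, with 84.2, 72.9 and 53.5 CPM, *Ckap2* with 33, 33.6 and 22.9 CPM and its relative *Ckap2l* with 47.1, 41.5 and 24.8 CPM. The 2 genes of cytokinesis, the kinesin *Kif23* and the actin binding *Anln*, were at 50.5, 40.5 and 20.9 CPM and at 38.5, 45.4 and 20.5 CPM. *Top2a* and *Mki67*, of chromosome structure, were at 238, 229 and 89 CPM and at 98.6, 117 and 27.5 CPM, and the condensin subunit *Smc4* at 195, 186 and 98.3 CPM.

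**Figure D3:**
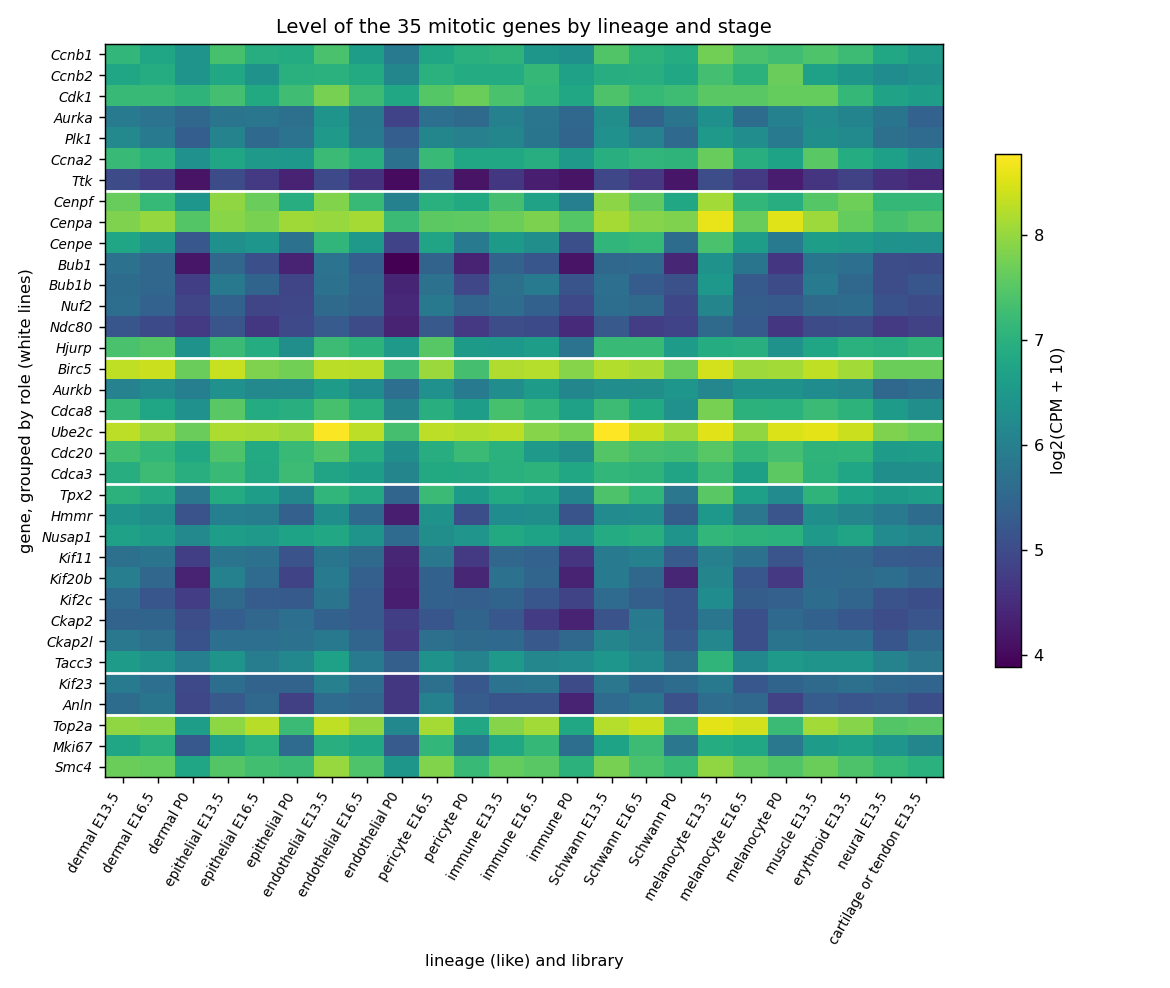
Level of each of the 35 mitotic genes (log2 of CPM plus 10, colour scale) in each lineage and stage group, with genes ordered by role. *Top2a*, *Mki67*, *Cenpe* and *Kif20b* fade from E13.5 to P0 in dermal-like cells, while *Cdk1*, *Aurkb* and *Cdca3* keep nearly the same colour.

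Genes of S phase differed more than the members did. Of the 43, 30 were at least 2-fold lower in dermal-like cells at P0 than at E13.5, with a median of −1.13, led by *Nasp*, a histone chaperone (209 CPM at E13.5, 33 CPM at P0), *Cdca7* (82.6 and 9.42 CPM) and *Casp8ap2* (81.5 and 14.2 CPM), while *Cenpu*, *Ubr7* and *Brip1* were nearest to no difference. Of the 52 other G2 and M genes 13 were at least 2-fold lower, with *Cbx5*, *Ckap5* and *Sgol2a* lowest, and *Pbk* (51.8 and 60.4 CPM), *Nek2* and *Pttg1* highest. Of 13 measured inhibitors of the cycle and markers of quiescence, 6 were at least 2-fold higher, beside 4.36% of all genes, and 1 lower. *Btg2*, an antiproliferative gene that is also known to respond to stress, was at 12.7, 75.3 and 433 CPM at E13.5, E16.5 and P0 (log2 difference 4.29, counting error 0.09). *Cdkn2c*, the CDK inhibitor p18, was at 18.2, 68.6 and 115 CPM, and *Btg1* at 131 and 547 CPM at E13.5 and P0. *Cdkn1c*, the imprinted inhibitor p57, went the other way, with 2251 CPM at E13.5 and 965 CPM at P0. At E16.5 none of the S phase genes or other G2 and M genes reached 2-fold, the lowest being *Cdca7*, *Nasp*, *Casp8ap2*, *Cbx5*, *Lbr* and *Sgol2a*, and *E2f8*, *Pcna*, *Brip1*, *Cenpw*, *Pbk* and *Ncapd2* the highest. *Cdkn1a*, the inhibitor p21, was at 13.6 CPM at E13.5 and 105 CPM at E16.5, and *Gadd45a*, *Gas1* and *Cdkn1b* had the lowest differences of the list at that stage.

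The inhibitors differed in where they were found, and the genes given here were chosen after their values were seen. *Cdkn2c* was concentrated in the mitotic cells: at P0 mitotic dermal-like cells held a mean of 1.37 UMIs of it out of 3500 and the other dermal-like cells 0.16 (log2 ratio 3.10), and the log2 ratio was 2.93 at E13.5 and 2.63 at E16.5. In epithelial-like cells it was 2.94 at E16.5 and 3.07 at P0. *Cdkn1c* was lower in mitotic dermal-like cells at all 3 stages, with log2 ratios of −0.51, −0.45 and −0.60, and *Btg2* was lower at P0 (0.813 against 1.66 UMIs, log2 ratio −1.03). *Cdkn1a* was lower in the mitotic dermal-like cells of E16.5 (0.168 against 0.57 UMIs) and not of P0 (0.355 against 0.28 UMIs).

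In the epithelial lineage the mitotic share was 73.1% of 227 cells at E13.5 (interval 66.9% to 78.8%), 49.7% of 769 at E16.5 and 40% of 818 at P0, a 1.83-fold difference between P0 and E13.5 (log2 ratio −0.87, interval −1.04 to −0.71). Unthinned it was 85%, 79.2% and 54.5%, and among cells with at least 2500 genes 67.3%, 51.2% and 50.7%. The direction was the same in cells with at least 2500 genes, unlike the near equality found in dermal-like cells. Erythroid markers summed to 3115 CPM in epithelial-like cells at E13.5 and 305 CPM at P0, and their part was not tested. Epithelial sub-clusters mixed with another lineage were left out, 304 cells at E13.5 (80.3% mitotic) and 206 cells at P0 (28.6% mitotic). Of the 227 cells kept at E13.5, 112 were periderm-like. The part of this make-up in the stage difference was not tested.

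Only 4 of the 35 members were at least 2-fold lower in epithelial-like cells at P0, beside 9.23% of all genes, and the median was −0.32, against −0.25 over all genes. The count was 0 with cell cycle genes kept in the clustering and 7 with a pseudocount of 1 CPM. A count of 4 is near the share of all genes. The 4 were *Bub1* (35.3 and 10.5 CPM at E13.5 and P0), *Kif20b* (54.9 and 19.4 CPM), *Mki67* (89.8 and 38 CPM) and *Cenpf* (237 and 112 CPM). *Cdk1* was at 148 and 146 CPM, *Cdca3* at 138 and 142 CPM and *Cenpa* at 228 and 261 CPM, so these genes were level or a little higher at P0. The log2 difference of a member was lower in the dermal than in the epithelial lineage for 32 of the 35, but each lineage was measured in the same 2 libraries. *Ckap2* had the highest epithelial difference (30.5 and 40.9 CPM, log2 0.33, counting error 0.18). Of the S phase genes 6 of 43 were at least 2-fold lower, with *Casp8ap2*, *Nasp* and *Usp1* lowest and *Pcna*, *Prim1* and *Dscc1* highest. Of the other G2 and M genes 4 of 52 were, with *Cbx5*, *Rangap1* and *Cenpk* lowest and *Foxm1*, *Psrc1* and *Cdc25c* highest. *Cdkn1c* was at 500 CPM at E13.5 and 35.1 CPM at P0 and *Cdkn2b* at 36.9 and 5.23 CPM, while *Btg2* (30.5 and 192 CPM), *Gadd45g* and *Cdkn1a* (89.4 and 247 CPM) were higher at P0.

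**Figure D4:**
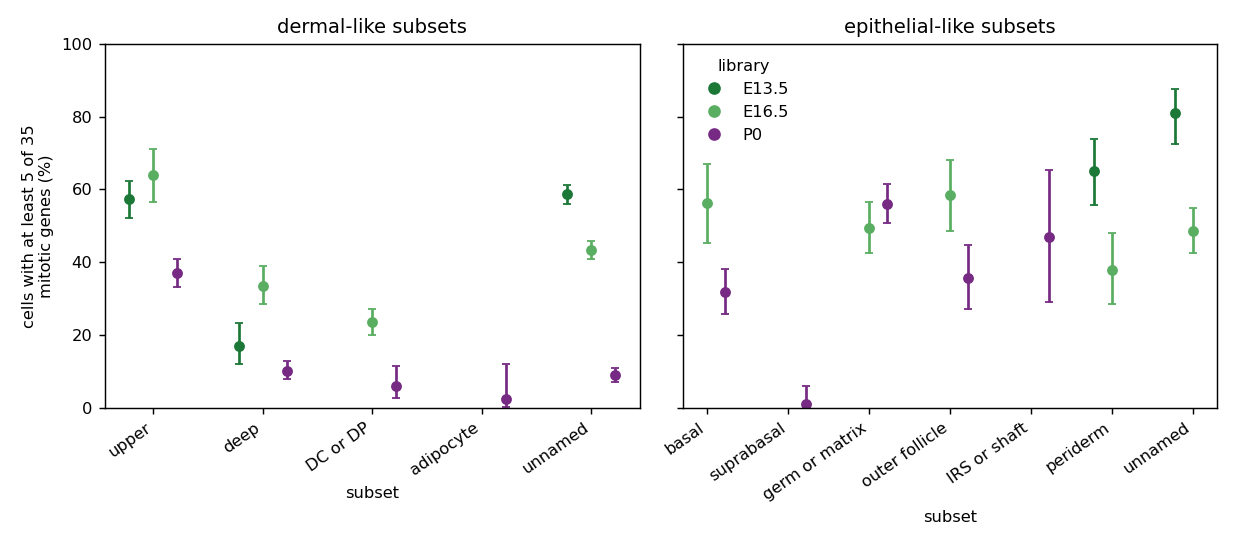
Share of mitotic cells (percent, thinned to 3500 UMIs, exact 95% binomial intervals that cover counting error only) in the dermal and epithelial subsets named by fixed markers, by stage. Suprabasal-like cells (1.11%), adipocyte-like cells (2.27%) and DP-like cells (5.88%) at P0 lay lowest, and upper dermal-like cells lay above deep dermal-like cells at each stage.

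The upper dermis, which lies next to the epidermis and responds to Wnt signals, was named from markers such as *Wif1*, *Apcdd1* and *Axin2*, and the deep dermis from *Dlk1*, *Mfap5*, *Dpt* and others. Upper cells had the larger mitotic share at every stage. At E13.5 it was 57.3% of 379 upper cells (interval 52.1% to 62.3%) and 17% of 182 deep cells (11.9% to 23.3%), with a log2 ratio of 1.75 (interval 1.27 to 2.23). At E16.5 it was 64.1% of 181 and 33.4% of 332 cells, with a log2 ratio of 0.94 (0.67 to 1.21), and at P0 36.9% of 631 and 10.1% of 635, with a log2 ratio of 1.87 (1.51 to 2.24). Without thinning the shares were 76.8% and 42.3% at E13.5 and 75.7% and 64.5% at E16.5, and the log2 ratios 0.86, 0.23 and 1.57 at the 3 stages. Each E13.5 subset was a single sub-cluster, and the upper subset of E16.5 was 1 sub-cluster led by *Idi1* and *Msmo1*, genes of sterol synthesis. A deep sub-cluster of 55 cells at E16.5 was led by *Acta2* and *Meox2*, with no deep marker among its 10 leading genes, and without it the deep share was 31.8% and the log2 ratio 1.01. At P0 the sub-cluster led by *Cenpf*, *Ube2c* and *Top2a*, of which 52.1% was mitotic, was named upper, and without it the upper share was 26% and the log2 ratio 1.36.

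Most members followed. At E13.5 32 of 35 were at least 2-fold higher in upper than in deep cells (3.99% of all genes), with a median of 1.39 against 0.05 over all genes. At E16.5 16 were (3.44% of all genes), with medians of 0.94 and 0.06, and at P0 all 35 (5.77% of all genes), with medians of 1.75 and 0.19. With cell cycle genes kept in the clustering the count was 1 at E13.5, and 2 higher and 9 lower at E16.5. At E16.5 it was also 0 among cells with at least 5000 UMIs and 2 when each cell was named by itself, and at P0 it ranged down to 12 at resolution 0.5. *Birc5* was at 420 CPM in upper and 99.7 CPM in deep cells at E13.5, 535 and 248 CPM at E16.5, and 443 and 110 CPM at P0. *Ccnb1* was at 159 and 38.9 CPM, 215 and 82.1 CPM, and 192 and 27.1 CPM, and *Cdc20* at 188 and 53.9 CPM, 352 and 100 CPM, and 251 and 43.2 CPM. In these 3 genes upper cells were higher in every library. E16.5 differed from the other stages in that *Cdk1* (134 and 129 CPM), *Top2a* (207 and 193 CPM), *Aurkb* (64.7 and 59.1 CPM) and *Hjurp* (138 and 171 CPM) were nearly level or lower in upper cells, while *Ccnb2* (335 and 89.5 CPM), *Cenpa* (673 and 225 CPM) and *Cdca3* (289 and 107 CPM) were well above. At P0 *Cdk1* was at 305 and 61.4 CPM and *Cenpf* at 203 and 28.4 CPM, the largest log2 difference of any member (2.47, counting error 0.13).

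The S phase genes gave a like contrast between stages. At E13.5 13 of 42 measured were at least 2-fold higher in upper cells (median 0.77), led by *Gmnn*, *Rad51ap1* and *Tyms*, with *Ubr7* and *Chaf1b* among the lowest. At E16.5 none was higher and 6 of 38 were lower (6.39% of all genes were, median −0.59), with *Mcm6* (22 CPM in upper, 77.6 CPM in deep cells), *Atad2* and *Hells* lowest, and *Nasp*, *Uhrf1* and *Prim1* highest. At P0 17 of 37 were higher (median 0.97), led by *Rrm2* (146 and 28.8 CPM), *Rad51ap1* and *Tyms*, with *Ubr7* and *Pola1* among the lowest. The 181 cells named upper at E16.5 thus had more mitotic and fewer S phase transcripts than deep cells, which was found at no other stage. Only 4.97% of them held 5 S phase genes without 5 members, against 22.3% of deep cells. None of their 10 leading genes was an upper marker. Sub-clusters of 207, 131, 126 and 68 cells also matched the upper list best but stayed unnamed for a low score. The first had *Ccnb2*, *Cenpa* and *Cdc20* among its leading genes. The part of this naming was not tested. Among other G2 and M genes 26 of 51 were higher at E13.5 (*Sgol2a*, *Kif22* and *Kif4* highest, *G2e3*, *Cbx5* and *Ctcf* lowest), 8 of 52 at E16.5 (*Cenpw*, *Kif20a* and *Hmgb2* highest, *Mybl2*, *Cbx5* and *Cdca2* lowest) and 40 of 50 at P0 (*Pbk*, *Spc25* and *Prc1* highest, *Pttg1*, *Cep55* and *G2e3* lowest). *Cdkn1c* was the inhibitor with the lowest difference at every stage, with 779 CPM in upper and 4711 CPM in deep cells at E13.5, 525 and 4318 CPM at E16.5, and 279 and 1446 CPM at P0. *Cdkn1a*, *Gadd45g* and *Gadd45a* had the highest differences at E13.5, *Gadd45g*, *Btg1* and *Cdkn1a* at E16.5, and *Cdkn2c* (229 and 58.4 CPM), *Cdkn1a* (100 and 29.6 CPM) and *Cdkn2a* at P0, while *Btg2* was among the 3 lowest at each stage. Erythroid markers summed to 1929 CPM in upper and 544 CPM in deep cells at P0, and their part was not tested.

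DC-like cells of E16.5, named from *Sox2*, *Sox18*, *Bmp3*, *Foxd1* and other markers, had 131 mitotic cells of 561, 23.4% (interval 19.9% to 27.1%), and the other 2163 dermal-like cells had 43.5% (41.4% to 45.6%), a log2 ratio of −0.90 (interval −1.12 to −0.67). Unthinned it was 44.2% and 70.6%, and the ratio turned to 0.21 when cell cycle genes were kept in the clustering and was −0.04 when each cell was named by itself. The 3 sub-clusters of the group were far apart. The one led by *Bmp3*, *Sox18* and *Sox2* had 10.9% of 230 cells, the one led by *Hba-x*, *Foxd1* and *Fst* 27.7% of 83 cells, and the one with *Aqp1*, *Dkk1*, *Ptch1* and *Cdkn1a* among its leading genes 33.5% of 248 cells. Counted by the UMIs of the DC and DP markers in a thinned cell, the share was 38.9% of dermal-like cells with none, 46.8% with 1 to 2, 43.2% with 3 to 5, 19.1% with 6 to 10 and 3.55% (5 of 141, interval from 1.16%) with 11 or more.

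**Figure D5:**
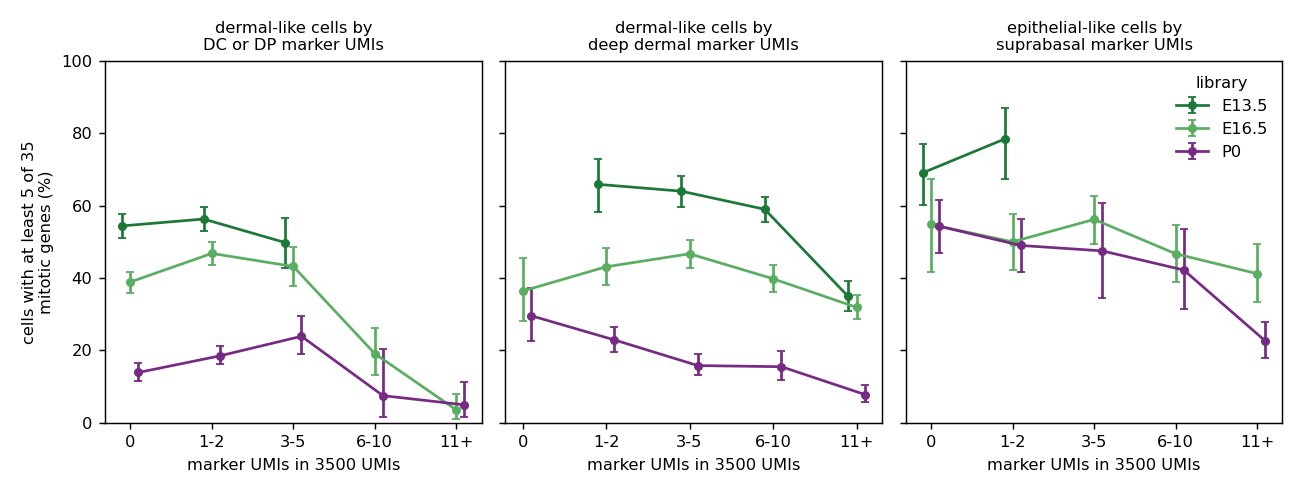
Share of mitotic cells (percent, exact 95% binomial intervals that cover counting error only) against the number of UMIs of a marker list in a cell thinned to 3500 UMIs, for DC or DP markers and deep dermal markers in dermal-like cells and for suprabasal markers in epithelial-like cells, by stage. With 11 or more DC or DP marker UMIs the share was 3.55% at E16.5 and 4.95% at P0, and at P0 it was 29.6% with no deep dermal marker UMI and 7.81% with 11 or more.

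None of the 35 members was 2-fold lower in DC-like cells (1.68% of all genes were), but all 35 were below 0, with a median of −0.43 against 0.06 over all genes. With cell cycle genes kept in the clustering 24 were at least 2-fold higher in DC-like cells, while 9 were lower with the naming reference at the median. *Cenpa* had the largest difference (140 against 269 CPM in other cells, log2 −0.90, counting error 0.05), then *Cdca3* (91.1 and 152 CPM), *Cdc20* (83.7 and 139 CPM) and *Ccnb2* (71.1 and 117 CPM), while *Top2a* (218 and 232 CPM) and *Ndc80* (20.2 and 21.8 CPM) were nearly level. The S phase genes were not lower: none reached 2-fold and their median was 0.04, with *Nasp* (138 and 104 CPM), *Mcm6* and *Fen1* highest and *Gins2*, *Rpa2* and *Cdca7* lowest. Of the other G2 and M genes none reached 2-fold, with *Cks2*, *Aspm* and *Lbr* lowest and *Pttg1*, *Anp32e* and *Ctcf* highest. Among inhibitors *Cdkn1a* was at 462 against 28.7 CPM (log2 difference 3.61, counting error 0.06), *Gadd45g* at 300 and 94.3 CPM and *Btg1* at 740 and 292 CPM, while *Cdkn1c*, *Gas1* and *Cdkn2c* were lower. Epithelial markers summed to 524 CPM in DC-like cells against 393 CPM in the others, and their part was not tested.

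DP-like cells of P0 had 8 mitotic cells of 136, 5.88% (interval 2.57% to 11.3%), while the other 2146 dermal-like cells had 17.3%, a log2 ratio of −1.56 (interval −2.54 to −0.58), and 14.7% against 20.3% without thinning. The ratio turned to 0.33 when each cell was named by itself. Of the members 22 of 35 were at least 2-fold lower, against 3.47% of all genes, with a median of −1.30 against 0.18. The count was 0 when clusters led by 1 marker of another class were kept, 1 lower and 1 higher when each cell was named by itself, and 34 among cells with at least 2500 genes. *Cdk1* was at 18.3 CPM in DP-like and 132 CPM in other cells (log2 difference −2.32, counting error 0.32), *Ube2c* at 41.3 and 202 CPM, *Nusap1* at 9.17 and 66.7 CPM and *Birc5* at 44.9 and 202 CPM. All members of the passenger complex, of the anaphase genes and of chromosome structure were among the 22. *Hjurp* differed least (57.8 and 74.1 CPM, log2 −0.31, counting error 0.19). These levels rest on few UMIs, 1 for *Ttk*, 2 for *Bub1* and 3 for *Nuf2* in DP-like cells. Of the S phase genes 2 of 40 measured were 2-fold lower, *Rrm2* and *Rad51ap1*, followed by *Pcna*, and *Nasp* and *Ubr7* were among the highest. Of the other G2 and M genes 20 of 51 were lower, *Cenpm*, *Pbk* and *Spc25* most, and *Ctcf*, *Pttg1* and *Cenpw* were highest. *Cdkn1a* was again higher (244 and 70.2 CPM), with *Rb1* (36.7 and 5.59 CPM) and *Btg1*, while *Gas1* (207 and 746 CPM), *Cdkn2c* and *Cdkn1c* were lower. The DP-like group was 1 sub-cluster. A further sub-cluster of 131 cells had *Bmp4*, a listed DC and DP marker, and *Cdkn1a*, which is not listed, among its leading genes. It best matched the upper list, was left unnamed and had 4.58% mitotic cells. The unnamed P0 cluster of 206 cells with the listed markers *Sox18* and *Heyl* among its leading genes had 27.2%. It was counted neither as DP-like nor as other dermal-like cells. Adipocyte-like cells of P0 had 1 mitotic cell of 44, 2.27% (interval 0.0575% to 12%), and 31.8% without thinning at a median of 15694.5 UMIs.

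Among keratinocytes of P0 the suprabasal-like cells, which make the outer layers of the epidermis and were named from *Krt1*, *Krt10* and other markers, had 1 mitotic cell of 90, 1.11% (interval 0.0281% to 6.04%). Basal-like cells, named from *Krt5*, *Krt14* and *Krt15* among others, had 70 of 221, 31.7% (25.6% to 38.2%). Of these, 22 cells formed a sub-cluster led by *Ebf1* and *Serpine2*, with *Bmp3*, *Inhba* and *Sox18*, which are DP markers, and no basal marker among its 10 leading genes, and without it the share was 32.7% of 199 cells and the log2 ratio −4.88. With all basal-like cells the comparison gave a log2 ratio of −4.83 with a wide interval of −7.66 to −2.01. The log2 ratio was −1.73 when called doublets were left out, and 9 members were 2-fold lower when clusters led by 1 marker of another class were kept. Without thinning the shares were 16.7% and 41.2%, at medians of 11777.5 and 8491 UMIs. Of 30 members with at least 50 UMIs over both groups 29 were at least 2-fold lower in suprabasal-like cells, against 6.32% of all genes, with a median of −1.94 against −0.07 (−1.94 too with *Hmmr* at the bound that a count of 0 allows, 3 counts). *Ube2c* was at 28.1 CPM in suprabasal-like and 253 CPM in basal-like cells, *Cenpf* at 8.82 and 116 CPM, *Ccnb2* at 8.01 and 104 CPM and *Cdk1* at 15.2 and 124 CPM. *Hjurp* was the exception, at 38.5 and 56.5 CPM (log2 −0.46, counting error 0.24), and *Hmmr* had no UMI in suprabasal-like cells and was at 26.8 CPM in basal-like cells. The 5 members below 50 UMIs were *Bub1*, *Bub1b*, *Nuf2*, *Ndc80* and *Ttk*.

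S phase genes were lower too, 12 of 28 measured by at least 2-fold, *Gins2*, *Dtl* and *Rfc2* most and *Ubr7* and *Cdca7* among the least, and 25 of 34 other G2 and M genes, *Racgap1*, *Spc24* and *Hmgb2* most, with *Rangap1*, *Pttg1* and *Psrc1* highest. *Cdkn1a* was at 801 CPM in suprabasal-like and 240 CPM in basal-like cells, *Gadd45g* and *Btg2* were next, and *Cdkn1c*, *Cdkn2c* and *Gas1* were lowest. Counted by marker UMIs, the mitotic share of P0 epithelial-like cells was 54.3% with no suprabasal marker UMI and 22.6% with 11 or more. By matrix or germ markers it was 25.6% with none and 54.5% with 11 or more, and by basal markers 56.7% with 1 to 2 and 31.8% with 11 or more. The matrix or germ markers gave no such rise at E16.5, with 45.6% for none, 52.9% for 1 to 2 and for 3 to 5, 48.6% for 6 to 10 and 33.3% (7 of 21) for 11 or more. At E16.5 no sub-cluster was named suprabasal-like, and a periderm-like one that also had *Krt1* and *Krt10* among its leading genes had 37.9% mitotic cells (39 of 103). Periderm-like cells of E13.5, the outermost embryonic layer, had 65.2% (73 of 112).

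Matrix-like or germ-like cells, the follicle keratinocytes named from *Shh*, *Edar*, *Lhx2*, *Lef1* and others, had 56.1% mitotic cells of 351 at P0 (interval 50.8% to 61.4%), against 31.7% of basal-like cells, a log2 ratio of 0.83 (interval 0.52 to 1.13), or 0.78 without the sub-cluster named above, which turned to −0.59 when cell cycle genes were kept in the clustering and was 0.19 among cells with at least 2500 genes. At E16.5 they had 49.5% of 204, against 56.3% of 87 basal-like cells, and the interval of the log2 ratio (−0.19, interval −0.52 to 0.15) included 0. At P0 4 of 35 members were at least 2-fold higher in matrix-like cells, against 4.28% of all genes, with a median of 0.67 against 0.13. The count was 0 at resolution 2, with cell cycle genes kept in the clustering, with the naming reference at the median, with mixed sub-clusters kept, without called doublets, and among cells with at least 2500 genes or 5000 UMIs. The 4 were *Tacc3* (99.6 and 40.7 CPM), *Ccna2* (134 and 57.9 CPM), *Ndc80* (35 and 11.7 CPM) and *Nuf2* (32.8 and 11.4 CPM), and *Anln* was the member below 0 (21.1 and 27.5 CPM). At E16.5 none was 2-fold higher (0.742% of all genes), the median was 0.07 against −0.06, and *Aurkb* had the highest difference (68.7 and 35 CPM). S phase genes were more often higher at P0, 17 of 41 by at least 2-fold, with *Rrm2* (141 and 32.6 CPM), *Mcm2* and *Hells* highest and *Casp8ap2*, *Exo1* and *Ubr7* lowest, as were 9 of 51 other G2 and M genes, with *Spc24*, *Cenpq* and *Cenpm* highest and *Ect2*, *Pttg1* and *Ckap5* lowest. None of either list reached 2-fold at E16.5, where *Cenpu*, *Rfc2* and *Mcm2*, *Foxm1*, *Cdc25c* and *Spc25* were highest and *Mcm4*, *Casp8ap2* and *Chaf1b*, *Pttg1*, *Ncapd2* and *Lbr* lowest. *Cdkn1a* was at 36.8 CPM in matrix-like and 240 CPM in basal-like cells at P0 and *Gas1* at 40.3 and 283 CPM, while *Gadd45g* (219 and 59.8 CPM), *Gadd45a* and *Cdkn1b* were higher. At E16.5 *Gas1* (108 and 363 CPM) was lowest and *Gadd45g* (123 and 33.2 CPM) highest.

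At E16.5 outer follicle cells lay above both groups, and at P0 the other follicle subsets lay between them. Outer follicle cells, named from *Sox9*, *Lgr5* and others, had 58.5% mitotic cells of 106 at E16.5 and 35.5% of 124 at P0, and cells with inner root sheath or hair shaft markers had 46.9% of 32 at P0 (interval 29.1% to 65.3%). The matrix-like sub-clusters of P0 ranged from 51.6% of 95 cells to 67% of 88 cells, the last led by *Msx1*, *Krt28* and *Krt35*. Basal-like sub-clusters of P0 ranged from 21.1% of 76 cells to 39.8% of 123 cells.

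Over 21 lineage and stage groups of at least 100 cells, most members kept the pattern of the other 34. The Pearson r between a member and the mean of the others, on the scale of log2 of CPM plus 10, was highest for *Smc4* (0.949) and *Kif2c* (0.918), and 0.899 for *Top2a*. It was lowest for *Ckap2* (0.418), *Ccnb2* (0.491), *Cdca3* (0.494), *Cdk1* (0.504) and *Cenpa* (0.552). The groups of a stage share a library and its depth, so this is a description. *Cdk1* itself ranged from 88.2 CPM in cartilage or tendon-like cells of E13.5 to 206 CPM in endothelial-like cells of E13.5, and was at 195 CPM in pericyte-like and 187 CPM in melanocyte-like cells of P0. *Hjurp* ranged from 68.2 CPM in epithelial-like cells of P0 to 171 CPM in pericyte-like cells of E16.5.

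Among the 10 genes outside the lists whose level over those 21 groups was most like the mean of the members were *Spdl1* (r 0.953), *2810417H13Rik* (0.932), *Lig1* (0.907), *Nucks1* (0.903), *Rad54l* (0.902), *Casc5* (0.891, an older symbol of *Knl1*), *Kpna2* (0.890), *Shcbp1* (0.879) and *Cmc2* (0.876). *Spdl1* was highest in Schwann-like cells of E13.5 (20.7 CPM) and lowest in endothelial-like cells of P0 (3.43 CPM). *Lig1*, the DNA ligase of replication, ranged from 47.3 CPM in dermal-like cells of P0 to 138 CPM in Schwann-like cells of E13.5, and *Kpna2*, a nuclear import factor, from 37.4 to 131 CPM between endothelial-like cells of P0 and of E13.5.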

How the data were processed

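Per the study's methods, the authors aligned reads to mm10 and counted UMIs with Cell Ranger 2.2.0 (version and build from the submitters' processing notes) and removed cells under 1750 genes in Seurat. By the same methods, the first estimate of captured cells was highest at E13.5, and every library was then forced to the same number of cells. The part of this step in the stage shares was not tested. The deposited values are on a natural log scale, ln(1 + x), where x is a gene's UMIs after scaling each cell to 10000, a formula found from the values. All 48197283 values above 0 gave whole UMIs (relative tolerance 0.001), and these were used. The design text states 15086 cells and the table holds 16235, all of which were used. The libraries held 53334740, 66239195 and 46599806 UMIs at E13.5, E16.5 and P0, which sets the counting precision.

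Clusters (scanpy 1.11.5, leidenalg 0.10.2, 2000 variable genes, 30 components, 15 neighbours, resolution 1) were made per library without the members, the cell cycle lists and genes correlated with the members at 0.1 or more. A cluster took the marker list with the highest mean log2 difference from a reference, the 25th percentile over clusters. Only lists with at least 3 markers 2-fold or more above that reference, on the scale of log2 of CPM plus 10, were considered. Clusters whose 10 leading genes held more listed markers of another class of the same level than of their own stayed unnamed. The correlation limit, the minimum score of a subset (mean log2 of 1) and the rule on mixed sub-clusters were set after clusters were seen. The members and all lists were chosen with earlier results of these data known. The listed genes *Mymk*, *Cnmd*, *Defb6*, *Krt85*, *Pimreg* and *Knl1* had no match by symbol and were not used here, and the table held *Knl1* under its older symbol *Casc5*. Scrublet called 0 doublets at E13.5, where it did not work, 77 (1.48%) at E16.5 and 101 (1.99%) at P0, and all were kept.

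Shares were compared as log2 ratios with counting intervals, and summed UMIs as log2 of CPM plus 10 among genes with at least 50 UMIs over both groups, where a 2-fold difference was counted. Named were all members, the 3 highest and the 3 lowest genes of each other list, and the 10 genes most like the members, apart from some that are not reported here. The calculation was tested on simulated data. Alternatives changed depth, the threshold of members, the clustering, the naming, the cells and the pseudocount. Python 3.11.15, numpy 2.4.6, scipy 1.17.1 and matplotlib 3.10.9 were used.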

Additional observations from a re-analysis of the deposited data

How the results depend on the processing

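With 1 library per stage, no difference has a replicate check, and intervals cover counting error only. No paired analysis was possible because each stage has 1 library. Of 554 values under alternatives, 442 stayed close to the value reported and 109 moved, and 3 share ratios whose interval excludes 0 took the other sign. A ratio was close if it lay in the reported interval, however wide, and a count if it was equal or within a set factor. The total holds 328 counts of members, of which 278 stayed close, and many of these were 0 both times. Of the 175 share ratios 116 stayed close and 56 moved. In all, 170 of 175 share ratios kept their sign, and the other 2 that did not were of matrix-like cells at E16.5, whose interval includes 0. Counts of members turned direction for DC and for upper cells at E16.5, as given below. The P0 to E13.5 ratio of dermal-like cells stayed below 0 under all 17 alternatives (−2.27 to −0.01), that of epithelial-like cells too (−1.03 to −0.40), and upper cells stayed above deep cells at each stage (0.86 to 2.02 at E13.5, 0.23 to 1.13 at E16.5, 0.75 to 4.47 at P0). Below, ratios are log2 ratios of mitotic shares, counts are of members past 2-fold, and the cause of a change was not tested.

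At each cell's own depth the ratio was −0.15 for dermal E16.5, −0.64 for epithelial P0, −0.47 for DP, 0.86 and 0.23 for upper against deep at E13.5 and E16.5, and −1.30 for suprabasal cells. With at least 3 members it was −0.33 for dermal E16.5, −0.59 for DC, and 1.12 and 0.55 for upper against deep at E13.5 and E16.5, and with at least 8 members −1.54 for dermal P0. With summed member CPM it was −0.83 for dermal P0, −0.10 for dermal E16.5, −0.40 for epithelial P0 and −0.51 for DC, and 4 lineages (E13.5) and 2 (E16.5) lay above the dermal one, not 7 and 6.

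At resolution 0.5 the ratio was −0.33 for dermal E16.5, −1.30 for DC and 0.78 for upper against deep at P0, with counts of 14 for dermal P0, 4 for DC and 12 for upper at P0. At resolution 2 it was 0.94 and 2.61 for upper against deep at E13.5 and P0, with counts of 16 for upper at E13.5 and 0 for matrix at P0. With cell cycle genes kept in the clustering it was −1.27 for dermal P0, −0.59 for dermal E16.5, −0.47 for epithelial P0, 0.21 for DC, 0.97 and 4.47 for upper against deep at E13.5 and P0, and −0.59 for matrix at P0, with counts of 5 for dermal P0, 0 for epithelial P0, 24 higher for DC, 1 for upper at E13.5, 2 higher and 9 lower for upper at E16.5, and 0 for matrix at P0.

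Among cells with at least 2500 genes the ratio was −0.01 for dermal P0, −0.17 for dermal E16.5, −0.40 for epithelial P0, −0.63 for DC, −2.83 for DP, 0.75 for upper against deep at P0 and 0.19 for matrix at P0, with counts of 1 lower and 1 higher for dermal P0, 1 for epithelial P0, 34 for DP, 22 for upper and 0 for matrix at P0, and 3 lineages above the dermal one at P0, not 6. Without called doublets it was 1.49 for upper against deep at P0 and −1.73 for suprabasal cells, with a count of 0 for matrix at P0. With each cell named by itself it was −0.17 for dermal E16.5, −0.04 for DC, 0.33 for DP, 0.53 and 1.43 for upper against deep at E16.5 and P0, and 0.18 for matrix at E16.5, with counts of 2 for epithelial P0, 1 lower and 1 higher for DP, 17, 2 and 19 for upper at the 3 stages, and 1 for matrix at P0.

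With the naming reference at the median it was −2.27 for dermal P0, −1.47 for DC, −1.96 for suprabasal cells and 0.49 for matrix at P0, with counts of 24 for dermal P0, 9 for DC, 13 for DP and 0 for matrix at P0. Means over cells gave counts of 1 for DC and 7 for matrix at P0, and a pseudocount of 1 CPM 15 for dermal P0, 7 for epithelial P0, 34 for DP and 7 for matrix at P0.

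A further 6 alternatives were chosen after seeing the data. With clusters led by 1 marker of another class kept, the ratio was −1.53 for dermal P0, −0.37 for dermal E16.5, −1.43 for DC, −0.43 for DP and −1.80 for suprabasal cells, with counts of 2 for epithelial P0, 4 for DC, 0 for DP, 9 for suprabasal and 9 for matrix cells. With mixed sub-clusters kept the counts were 2 for epithelial P0 and 0 for matrix at P0. Among cells with at least 5000 UMIs the ratio was −0.25 for dermal E16.5, −0.64 for epithelial P0, −1.22 for DC and 0.50 for upper against deep at E16.5, with counts of 17 for dermal P0, 2 for epithelial P0, 1 for DC, 12 for DP, 0 for upper at E16.5 and 0 for matrix at P0. Without sub-clusters led by cell cycle genes it was −2.19 for dermal P0 and 1.36 for upper against deep at P0, with a count of 21 for dermal P0. Without the E13.5 dermal sub-cluster of low depth it was −1.45 for dermal P0 and −0.21 for dermal E16.5. Without the 2 sub-clusters led by genes of other cells it was −4.88 for suprabasal cells, 0.78 for matrix at P0 and 1.01 for upper against deep at E16.5.

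Some alternatives gave no value because a group was not named: resolution 0.5 for DP, upper against deep at E13.5 and E16.5, suprabasal and matrix at P0; kept cell cycle genes for matrix at E16.5; the limits on genes and doublets for upper against deep at E16.5; and the median reference for upper against deep and for matrix at E16.5. No suprabasal group was named at E16.5.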
